A study of Mus musculus with 54 samples.

Results

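The nuclear genes for subunits of the respiratory chain and of ATP synthase were followed through the day in livers of wild-type mice, of mice lacking BMAL1, and of mice with BMAL1 restored in the liver. Members were taken by symbol: genes of complex I (Ndufa, Ndufb, Ndufc, Ndufs and Ndufv), complex II (Sdha to Sdhd), complex III (Uqcr and Cyc1), complex IV (Cox4i and Cox5 to Cox8) and ATP synthase, complex V (Atp5). Assembly factors (Ndufaf) and pseudogenes (-ps) were left out, and a mean of at least 0.5 FPKM (fragments scaled by transcript length and library size) over the 54 libraries was required. The symbols took 83 rows, and 78 of these reached the minimum, among 11759 genes of 18079 that did. Of the 78, 36 belonged to complex I, 4 to complex II, 9 to complex III, 14 to complex IV and 15 to complex V, with Ndufa4 and Ndufa4l2 counted with complex IV, where their proteins are found.

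Each library was total RNA, depleted of ribosomal RNA, from the liver of a female mouse on a C57BL/6J background. The mice were 8 to 12 weeks old, fed chow without restriction and kept in 12 h of light and 12 h of dark. The groups were WT, KO (BMAL1 knockout) and Liver-RE, which the labels give as Liver-RE BMAL1-stop-FL, that is a BMAL1 knockout with BMAL1 reconstituted in the liver. Livers were taken at ZT0, ZT4, ZT8, ZT12, ZT16 and ZT20 (hours after lights on), with 3 libraries per genotype and time and 18 per genotype. The recombinase or promoter that restored BMAL1 and the part of Arntl that the allele changes are left unnamed by the labels. The design asks which differences between WT and KO are present when BMAL1 is returned to the liver alone.

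Complexes I to IV pass electrons from NADH and succinate to oxygen and, at complexes I, III and IV, pump protons out of the mitochondrial matrix. ATP synthase lets the protons back and makes ATP. Most subunits are encoded in the nucleus and imported, and a small core is encoded in mitochondrial DNA and was not analysed here. BMAL1, the product of Arntl, pairs with CLOCK and binds the E-box sequence CACGTG; with it, the pair drives the daily cycle of many liver genes.

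The summed FPKM of a library ran from 274353 to 419402, and the files give no counts. The steps between low values placed a library's depth near 31.1 ± 3.94 mega reads (SD, n = 54), from 24.97 to 41.83, without giving whole reads. The Arntl value over the whole gene, 6.26 to 8.74 FPKM in KO, 0.350 to 12.1 in WT and 0.894 to 10.7 in Liver-RE, does not check the knockout label. WT ZT8 replicate 2 stood apart in its clock genes, with Arntl at 10.6 FPKM against 0.414 and 0.563 in the other 2 livers of its group, Dbp at 1.31 against 61.9 and 66.0, and Nr1d1 at 0.292 against 17.7 and 16.5. Without this library each count of members past the adjusted threshold was the same. KO ZT0 replicate 1 had the lowest median over the members of all libraries, 6.08 on the log2(FPKM + 1) scale, and KO ZT0 replicate 2 the highest, 6.94. Alb, the gene for albumin, took 10.2% of the summed FPKM in WT against 4.82% in KO and 9.57% in Liver-RE, which moves the share left to other genes. Of 15 hepatocyte markers 3 were higher and 3 lower in KO than in WT, and Alb itself averaged 36852 FPKM in WT against 16700 in KO and 33046 in Liver-RE, so the liver's defining marker was present in all genotypes. Of 12 Kupffer cell markers 11 were lower in KO than in WT, with sums of 313 to 444 FPKM in WT against 187 to 412 in KO and 187 to 458 in Liver-RE; 5 of the 12 were lower in Liver-RE than in WT. Both tested biliary markers of the 6 listed, Spp1 and Sox9, were higher in KO than in WT and lower in Liver-RE than in KO. Spp1 averaged 17.7 FPKM in WT against 39.5 in KO and 13.4 in Liver-RE, and the biliary sums ran from 12.1 to 40.1 in WT against 14.7 to 76.2 in KO and 8.79 to 21.8 in Liver-RE. Spp1 made up most of these sums. The listed biliary markers that were not tested, Krt19, Krt7, Epcam and Cftr, had lower means in KO than in WT. Krt19, the defining one, averaged 0.360 FPKM in WT against 0.311 in KO and 0.312 in Liver-RE. Nothing in the labels says whether 2 libraries could share an animal, so p-values measure the spread between these libraries.

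The 250 bases upstream of the start were found for 65 members in RefSeq promoters of build GRCm38.p6 and searched on both strands. The E-box CACGTG was present in 6 of these 65 (9.23%), namely Atp5f1, Atp5g1, Atp5g3, Atp5l, Ndufa7 and Ndufv1, against 8.845% of 9113 tested genes and 6.05% of all 27025 promoters. The NRF1 motif GCGCNTGCG, bound by a regulator of respiratory genes, was in 14 members (21.5%), against 11.7% of tested genes and 5.40% of all. The ETS motif CCGGAAG, bound among others by GABP, was in 11 (16.9%), against 14.2% and 7.05%. The YY1 motif AAGATGGCG was in 0 of the 65 windows, against 1.25% and 0.607%, and the ERR motif TCAAGGTCA was in 1 (1.54%), against 0.241% and 0.366%. No motif's letters contain another's, and a match describes letters only. GC content had a median of 56.4% in the members and 59.6% in the tested genes. Upstream windows of 4 members are shown, 5′ to 3′ on the gene's strand and ending next to the start. They belong to the 3 members past the threshold that differed most between genotypes and to Ndufv1, a core member with an E-box, whose letters are in capitals.
Cox7a1, chr7:30183921-30184170, plus strand: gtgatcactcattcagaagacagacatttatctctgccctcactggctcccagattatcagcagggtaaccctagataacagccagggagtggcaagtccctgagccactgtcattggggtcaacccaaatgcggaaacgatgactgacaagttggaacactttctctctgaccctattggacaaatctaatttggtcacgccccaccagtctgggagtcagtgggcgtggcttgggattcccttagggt
Ndufv3, chr17:31519986-31520114, plus strand, cut where the neighbouring gene Wdr4 begins: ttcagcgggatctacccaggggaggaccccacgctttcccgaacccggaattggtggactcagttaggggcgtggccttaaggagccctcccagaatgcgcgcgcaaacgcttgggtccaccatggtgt
Cox7a2l, chr17:83514334-83514583, minus strand: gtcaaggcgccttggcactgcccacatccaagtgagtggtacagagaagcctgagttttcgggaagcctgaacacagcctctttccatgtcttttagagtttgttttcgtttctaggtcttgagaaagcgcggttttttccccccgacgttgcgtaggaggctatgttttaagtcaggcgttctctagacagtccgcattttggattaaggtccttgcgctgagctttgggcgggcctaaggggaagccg
Ndufv1, chr19:4012756-4013005, minus strand: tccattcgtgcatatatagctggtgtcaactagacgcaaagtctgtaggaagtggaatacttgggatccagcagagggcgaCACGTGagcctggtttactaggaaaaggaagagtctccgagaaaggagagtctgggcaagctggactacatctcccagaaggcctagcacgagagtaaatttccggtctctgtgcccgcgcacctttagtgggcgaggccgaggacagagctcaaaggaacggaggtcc
The E-box of Ndufv1 lay 169 to 164 bases before the start. The windows of Cox7a1 and Cox7a2l held no match to any of the 5 motifs, and neither did the shown part for Ndufv3.

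Levels differed widely between members. The median of the members' mean levels was 89.2 FPKM, and by complex it was 62.3 for complex I, 133 for II, 131.8 for III, 143 for IV and 126 for V. The highest was Atp5b, the catalytic subunit of ATP synthase, at 545 FPKM, followed among the complexes by Ndufa4 (complex IV, 387), Uqcrh (complex III, 256), Ndufb9 (complex I, 201) and Sdha, the succinate-oxidising flavoprotein (152). The lowest of each complex were Ndufa4l2 (complex IV, 0.892), a hypoxia-induced relative of Ndufa4, Ndufs5 (complex I, 1.43, listed at 0 in 2 libraries), Atp5s (complex V, 1.88), Uqcrq (complex III, 64.2) and Sdhc, a membrane anchor of complex II (113). Together the 78 genes took 2.50% of the summed FPKM in WT against 2.71% in KO and 2.63% in Liver-RE.

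**Figure D1:**
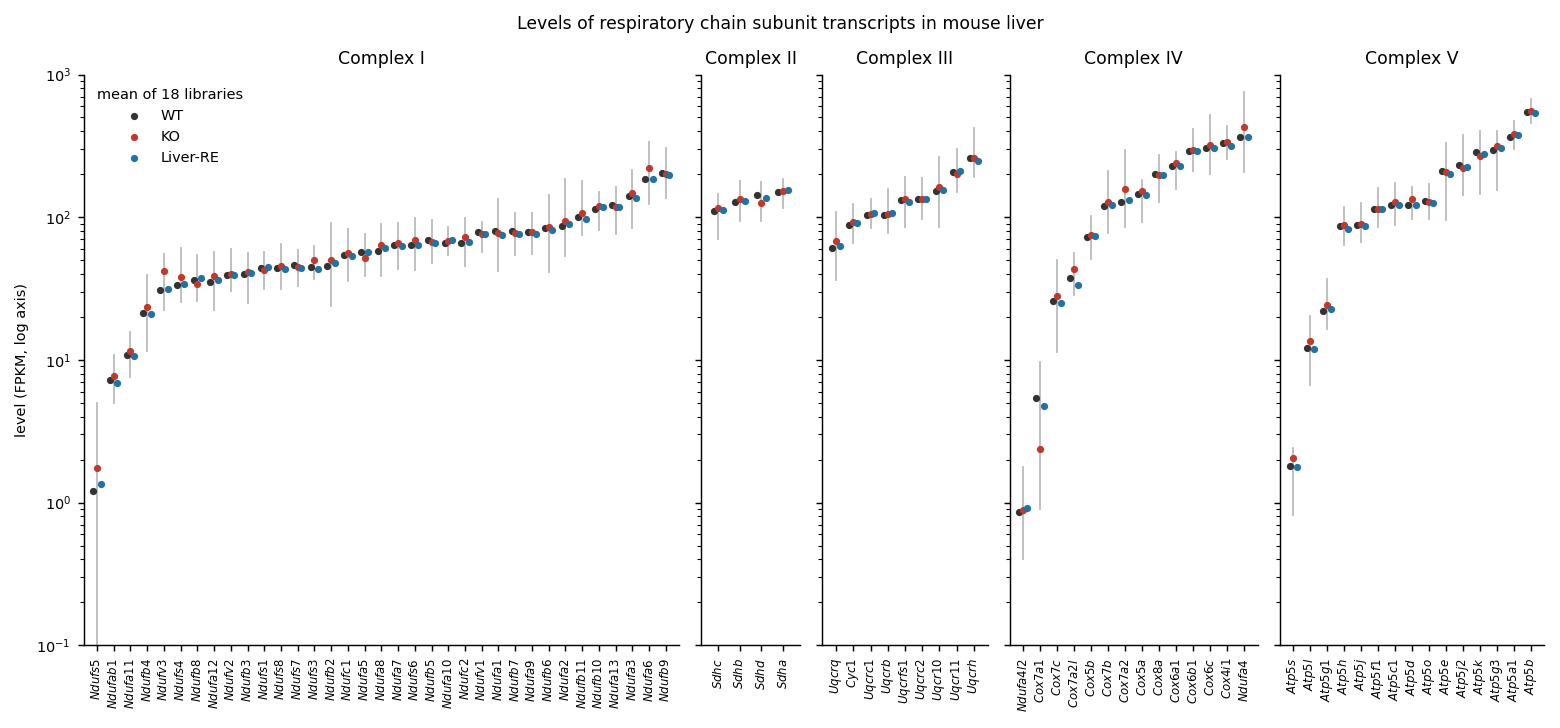
Level of members in FPKM on a log axis, in 5 panels by complex, with a coloured point for the mean of the 18 libraries of each genotype and a grey line from the lowest to the highest library. The points of the 3 genotypes lie close together except for Cox7a1, and Ndufa4l2, Ndufs5 and Atp5s are lowest at 0.892, 1.43 and 1.88 FPKM over all libraries; the line of Ndufs5 runs off the axis because it is listed at 0 in 2 libraries.

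Tissue isoforms were mostly one-sided. Cox4i2, Cox6a2, Cox6b2 and Cox8b, the lung, muscle, testis or heart counterparts of Cox4i1, Cox6a1, Cox6b1 and Cox8a, stayed under the minimum at 0.048, 0.0493, 0.106 and 0.052 FPKM, as did Atp5g2 at 0.352. Their liver partners stood at 331 FPKM in WT against 336 in KO and 318 in Liver-RE for Cox4i1, 230, 238 and 229 for Cox6a1, 290, 298 and 293 for Cox6b1, and 200, 199 and 196 for Cox8a. The pairs with both members above the minimum were Atp5g3 with Atp5g1 (c-ring subunits, a median ratio of 13.9 in WT against 13.3 in KO and 14.2 in Liver-RE), Ndufa4 with Ndufa4l2 (404, 501 and 446), and Cox7a2 with Cox7a1. That last pair moved: the ratio of Cox7a2 to Cox7a1 ran from 16.0 through a median of 24.3 to 48.6 in WT, from 32.3 through 76.8 to 120.04 in KO, and from 19.9 through 28.2 to 60.2 in Liver-RE.

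Between KO and WT the members differed little. With limma on log2(FPKM + 1), fitted on all 11759 genes with Benjamini-Hochberg adjustment over all of them and a threshold of 0.05, 7 of 78 members were higher in KO (8.97%, against 16.5% of all genes) and 2 were lower (2.56%, against 13.5% of all genes). As deposited, both shares lay below the background. By unadjusted p under 0.05, 14 members differed (17.9%, against 40.7% of all genes). The median log2 difference of the members was 0.04, beside 0.02 over all genes, and 58 of 78 were above 0 as deposited, 49 after quantile normalization, 48 with the 20 strongest genes left out and the libraries rescaled, and 44 with the members' median set equal in every library. By complex the median was 0.06 for I, 0.05 for II, 0.02 for III, 0.05 for IV and 0.03 for V. The higher members were 4 of complex I, 2 of complex IV and 1 of complex V, the lower ones 1 each of complexes II and IV, and in complex III none passed. The 95% interval of the difference lay within 1.25-fold in either direction for 68 of 78 members and for 71.4% of all genes, and within 1.5-fold for 76 members.

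**Figure D2:**
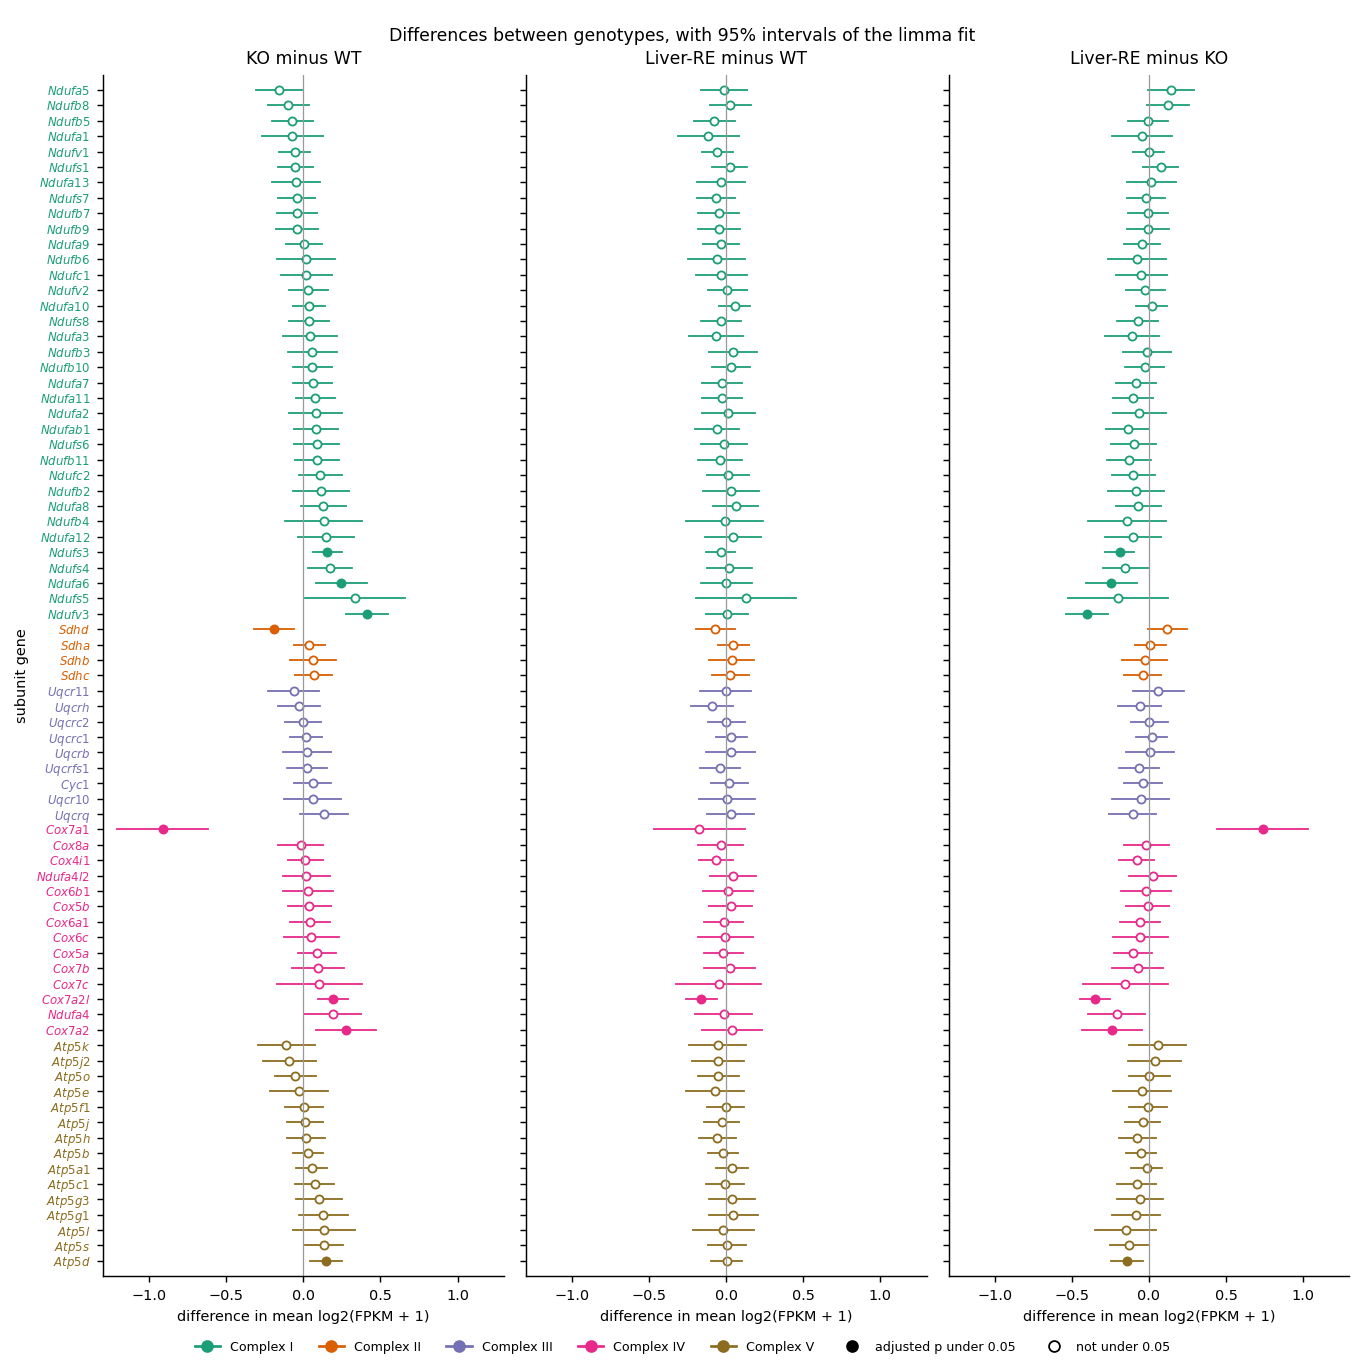
Difference in mean log2(FPKM + 1) between genotypes for members, coloured by complex, in 3 panels for the 3 contrasts, with lines for 95% intervals and filled points for an adjusted p under 0.05. Most points lie close to 0, Cox7a1 lies at -0.91 in KO minus WT and at 0.74 in Liver-RE minus KO, and Ndufv3 lies at 0.41 and -0.40.

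Cox7a1 changed most. It encodes the heart and muscle isoform of the COX7A subunit and lies at chr7:30184171-30186030. In WT it ran from 2.59 through a median of 4.89 to 8.87 FPKM, in KO from 0.901 through 2.35 to 4.09, and in Liver-RE from 1.85 through 4.36 to 9.67. The mean was 5.38 ± 1.79 (SD, n = 18) in WT against 2.38 ± 0.910 in KO and 4.75 ± 2.03 in Liver-RE. The lowest values were in KO, although the ranges over all times overlapped. The KO and WT triplets did not overlap at 5 of 6 times. At ZT16 they did, with 4.12, 2.78 and 6.18 in WT and 1.21, 1.97 and 3.01 in KO. The difference between KO and WT was -0.91 (SE 0.147, 95% interval -1.21 to -0.62) on the log2(FPKM + 1) scale, 1.88-fold lower, with an adjusted p of 2.37e-06. Its KO mean lay below the WT mean at all 6 times. Liver-RE did not pass against WT (-0.18, adjusted p = 0.468) and was higher than KO by 0.74 (adjusted p = 9.74e-05), 1.67-fold, at 6 of 6 times. Cox7a1 is known from muscle and brown fat, so markers of striated muscle and adipocytes are given beside it. Of 7 striated muscle markers 2 were in the table, Acta1 and Tnnt3 but not the defining Ckm, with sums of 0 to 0.04 FPKM in WT against 0 to 0.09 in KO and 0 to 0.08 in Liver-RE. Of 6 adipocyte markers 3 were in the table, Adipoq, Fabp4 and Cidec but not Ucp1, so brown fat was not checked. Their sums were 5.97 to 16.2 in WT against 6.10 to 17.6 in KO and 7.52 to 16.7 in Liver-RE, and Adipoq was listed at 0 in 13, 12 and 14 of 18 libraries. Fabp4, the only 1 tested, averaged 8.69 FPKM in WT against 11.0 in KO and 11.2 in Liver-RE. It passed as higher than WT in both. In bulk liver, fewer cells of a type and less RNA per cell cannot be told apart, and for the Kupffer, biliary and other cell types their part in any result here was not tested.

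**Figure D3:**
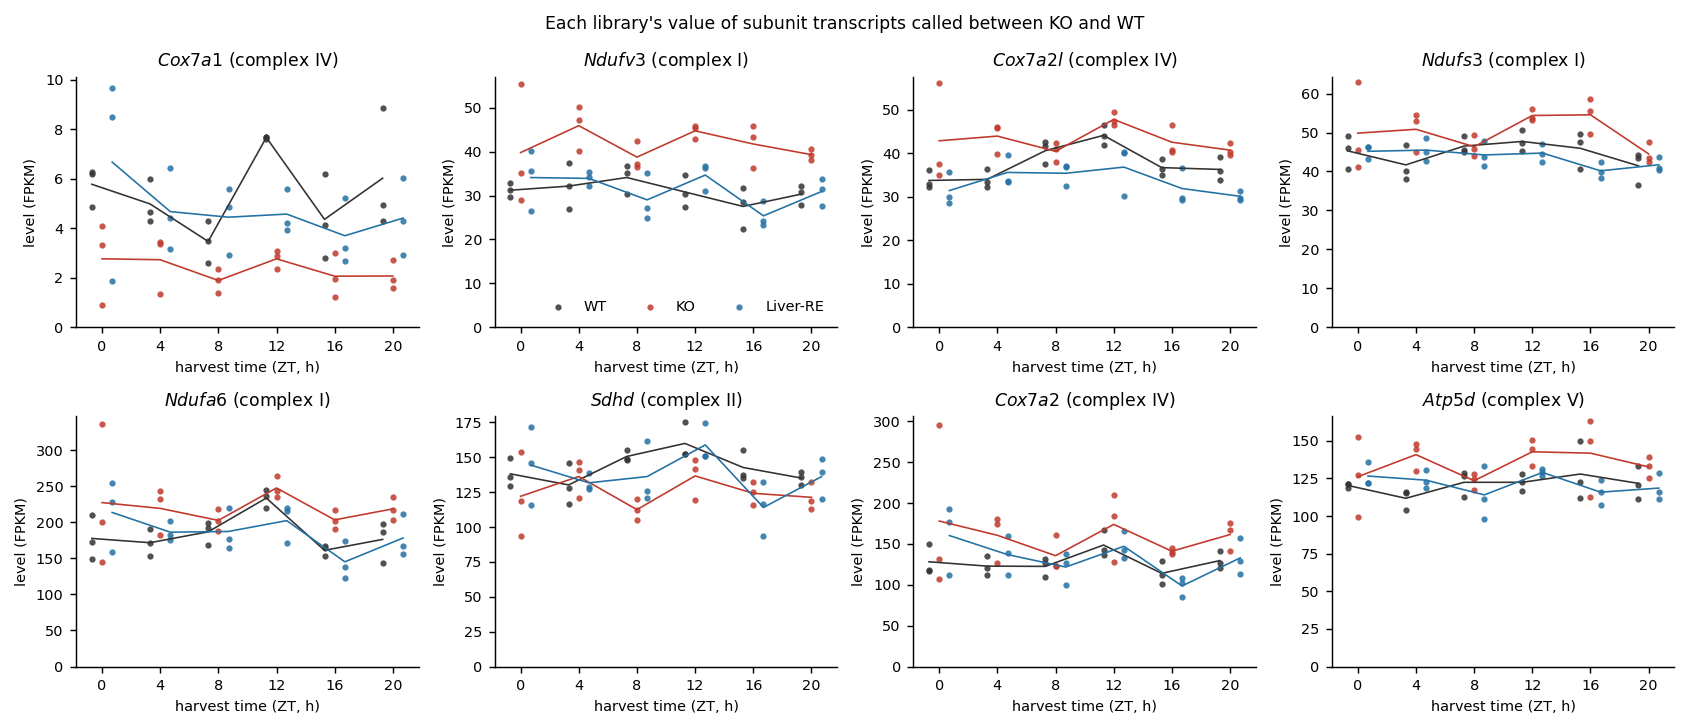
Level in FPKM of members that passed between KO and WT, 1 point per library and a line through the means of 3, against harvest time in hours from ZT0 to ZT20 by genotype. Cox7a1 has its lowest values in KO and Ndufv3 its highest, but over all times the ranges of KO and WT overlap for every gene shown.

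Of complex I, 4 members were higher in KO. Ndufv3 (chr17:31520115-31531326), an accessory subunit of the module that oxidises NADH, ran from 22.4 through 31.1 to 37.3 FPKM in WT, from 29.0 through 41.5 to 55.3 in KO and from 23.3 through 31.8 to 40.1 in Liver-RE. The highest values were in KO, although the ranges overlapped, and the KO triplets stood clear of WT at 4 of 6 times. KO was 0.41 above WT (SE 0.068, adjusted p = 4.11e-06), 1.33-fold, at 6 of 6 times, and Liver-RE was 0.40 below KO (-0.40, adjusted p = 6.23e-06). Liver-RE and WT differed by 0.01 (adjusted p = 0.962). Ndufa6 (chr15:82350139-82354291), an accessory subunit with a LYR motif, had 143.7 to 244.6 FPKM in WT (median 180), 145.4 to 335.9 in KO (median 216.6) and 123.3 to 253.7 in Liver-RE (median 176.5). The ranges overlapped, and KO was 0.25 above WT (adjusted p = 0.0186), at 6 of 6 times.

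Ndufs3 (chr2:90894627-90904721) is a core subunit in the arm that hands electrons to ubiquinone. It was 44.8 ± 4.08 FPKM in WT against 50.1 ± 6.16 in KO and 43.6 ± 2.89 in Liver-RE, with ranges of 36.6 to 50.6, 41.2 to 62.9 and 38.3 to 48.7. KO was higher by 0.15 (adjusted p = 0.00957), at 5 of 6 times, although the ranges overlapped, and 19.9% of the 100-base windows of its transcript also occur in other genes or pseudogenes. The next 4 core subunits did not pass: Ndufs1 had means of 43.8, 42.4 and 44.5 FPKM in WT, KO and Liver-RE (adjusted p = 0.508 for KO against WT), Ndufv1 78.8, 75.9 and 75.8 (0.421), Ndufs7 45.9, 44.8 and 43.9 (0.618), and Ndufs8 44.2, 45.8 and 43.3 (0.696). The acyl carrier Ndufab1 had means of 7.18, 7.70 and 6.88 FPKM (0.415).

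In complex II, Sdhd (chr9:50596340-50603849), the small membrane anchor, went against its complex. It ran from 116 through 142.6 to 175 FPKM in WT, from 93.4 through 120.7 to 154 in KO and from 93.5 through 135.4 to 174.7 in Liver-RE. The KO median lay close to the lowest WT value, but the ranges overlapped. KO was 0.19 below WT (-0.19, SE 0.064, adjusted p = 0.0193), with the KO mean higher at 1 of 6 times. Liver-RE was 0.12 above KO and did not pass as deposited (adjusted p = 0.139), yet it passed after quantile normalization (0.20, adjusted p = 2.66e-05) and with the 20 strongest genes left out (0.19, adjusted p = 0.000261). Its partners had means in WT, KO and Liver-RE of 149, 153 and 154 FPKM for Sdha (adjusted p = 0.607), 128, 134 and 131 for the iron-sulfur subunit Sdhb (0.559), and 110, 115 and 113 for Sdhc (0.421).

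As deposited, none of the 9 complex III genes passed in any test of level. Uqcrc2, a large matrix-side subunit, was the flattest of the named ones, at 134.5, 134.9 and 134.8 FPKM, with a 95% interval of -0.12 to 0.12 for KO against WT. Its partner Uqcrc1 had 104, 105 and 107 (adjusted p = 0.834 for KO against WT) and was higher in Liver-RE than in KO after quantile normalization (0.11, adjusted p = 0.033). The Rieske protein Uqcrfs1 had 132, 135 and 129 (adjusted p = 0.81 for KO against WT) and cytochrome c1, Cyc1, 88.6, 93.1 and 90.5 (0.489). Uqcrq came closest, with 61.3, 68.1 and 63.3 FPKM and a difference of 0.13 (adjusted p = 0.185); after quantile normalization the adjusted p was 0.0357.

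In complex IV, the other isoforms of the COX7A family were higher in KO where Cox7a1 was lower. Cox7a2 (chr9:79755241-79771422), the liver and general isoform, ran from 100.7 through 126 to 166.5 FPKM in WT, from 106.6 through 143.7 to 295.6 in KO and from 85.3 through 131 to 192 in Liver-RE. KO was 0.28 above WT (adjusted p = 0.0245), at 6 of 6 times, but without KO ZT0 replicate 2, which holds the value of 295.6, the adjusted p was 0.0506. Cox7a2 also overlaps Tmem30a. Cox7a2l (chr17:83501917-83514333) ran from 32.2 through 36.3 to 46.4 in WT, from 35.0 through 41.6 to 56.1 in KO and from 28.6 through 32.9 to 40.2 in Liver-RE. KO was 0.19 above WT (SE 0.049, adjusted p = 0.00203), at 5 of 6 times, although the ranges overlapped. Ndufa4, the strongest gene of the complex, had 366, 426 and 367 FPKM (0.19, adjusted p = 0.11), and Ndufa4l2 0.863, 0.894 and 0.919. The core-facing subunits Cox4i1 (adjusted p = 0.894), Cox5a (144, 154 and 143 FPKM, 0.3) and Cox5b (72.3, 74.6 and 74.4, 0.716) did not pass.

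Of ATP synthase only Atp5d passed. It encodes the delta subunit of the central stalk, lies at chr10:80138698-80145828 and overlaps Cbarp. It ran from 104 through 121 to 149.6 FPKM in WT, from 99.1 through 133 to 163 in KO and from 97.8 through 122 to 136 in Liver-RE, so the ranges overlapped. KO was 0.15 above WT (adjusted p = 0.025), at 6 of 6 times. The catalytic head did not pass, with means of 544, 556 and 536 FPKM for Atp5b (adjusted p = 0.686) and 367, 381 and 377 for Atp5a1 (0.449). Nor did Atp5c1, with 121, 128 and 121 (0.394), or the stator subunit Atp5o, with 131, 127 and 127 (0.581).

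Liver-RE was close to WT. No member was higher in Liver-RE than in WT (0 of 78, against 1.18% of all genes) and 1 was lower (1.28%, against 5.88% of all genes). By unadjusted p under 0.05 only that 1 member differed, also when both directions were counted, against 25% of all genes. It was Cox7a2l, at 33.5 ± 4.07 FPKM in Liver-RE and 37.6 ± 4.27 in WT (-0.16, adjusted p = 0.0356), with the Liver-RE mean higher at 1 of 6 times. The call went when any 1 of 9 libraries was left out (WT ZT0 replicate 2, ZT8 replicate 3, ZT12 replicate 1 and ZT20 replicate 3; Liver-RE ZT0 replicate 1, ZT8 replicate 2, ZT12 replicate 1, ZT16 replicates 2 and 3), with an adjusted p of up to 0.0679. The interval of the difference lay within 1.25-fold for 75 of 78 members, beside 83.2% of all genes, and within 1.5-fold for all 78. The members' median was -0.01 beside -0.06 over all genes, with 34 of 78 above 0 as deposited but 59 after quantile normalization, 58 with the 20 strongest genes left out and 49 with the members' median set equal, so the direction of most members turned with the scaling.

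Liver-RE against KO uses the same KO libraries as the first contrast, so the values of the 2 contrasts are not independent. Here 1 member was higher in Liver-RE (1.28%, against 7.42% of all genes) and 7 were lower (8.97%, against 26.7% of all genes), again shares under the background; by unadjusted p, 11 differed (14.1%, against 44.1% of all genes). The higher one was Cox7a1. The lower ones included Ndufv3, Ndufs3 and Ndufa6 of complex I, Cox7a2 and Cox7a2l of complex IV and Atp5d. Cox7a2l fell most surely, by 0.35 (adjusted p = 1.25e-07), with the Liver-RE mean below KO at all 6 times. Ndufa6 fell by 0.25 (adjusted p = 0.0176) and Ndufs3 by 0.19 (adjusted p = 0.00144). These 3 and Ndufv3 passed in each alternative run. Atp5d fell by 0.14 (adjusted p = 0.025, up to 0.22 over the alternatives and 0.0511 without Liver-RE ZT8 replicate 1), and Cox7a2 by 0.24 with an adjusted p of 0.0482, which 31 of the 54 leave-outs took past the threshold.

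The split of higher and lower calls in Liver-RE against KO turned with the scaling. It was 1 and 7 as deposited, 6 and 5 after quantile normalization, 6 and 4 with the 20 strongest genes left out, and 5 and 6 with the members' median set equal. Over all genes it was 873 and 3134, 1457 and 1643, 1246 and 1630, and 946 and 1128. These are of 11759 genes, or 11739 with the 20 strongest left out. The members' median moved from -0.05 to 0.01, 0.02 and 0.01 on the same settings, while over all genes it was -0.07, -0.01, -0.02 and -0.01. Members above 0 numbered 16, 43, 48 and 43. Ndufs1, Ndufa5, Ndufb8 and Sdhd were called higher in Liver-RE under each of the 3 rescalings. The interval lay within 1.25-fold for 68 of 78 members and for 69.4% of all genes. For KO against WT the split was 7 and 2 as deposited, 10 and 3, 8 and 4, and 9 and 7. All genes gave 1940 and 1592, 1987 and 1991, 1654 and 1970, and 1128 and 1479. With the members' median set equal, the share of members higher in KO was thus above that of all genes.

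Few members followed a 24 h rhythm. A cosine with a 24 h period was fitted within each genotype. In WT 2 of 78 members passed (against 23.5% of all genes), in KO 0 (against 0% of all genes) and in Liver-RE 1 (against 3.82% of all genes). By unadjusted p under 0.05 the numbers were 4, 0 and 12 (5.13%, 0% and 15.4%), against 37.6%, 9.4% and 21.1% of all genes. No member differed in rhythm between KO and WT (against 7.78% of all genes), between Liver-RE and WT (against 3.51%) or between Liver-RE and KO (against 0.238%); by unadjusted p, 1, 0 and 4 members did, against 24.6%, 17.8% and 12.4% of all genes. The smallest adjusted p values by limma were 0.181 for Atp5s, 0.343 for Ndufa5 and 0.3 for Ndufb3. A rhythm that passed in one genotype and not in another is therefore not shown to differ.

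Atp5s (chr12:69724913-69744665), for the coupling factor B, was the clearest rhythm in WT. Its WT values ran from 0.820 through 1.78 to 2.38 FPKM, with the lowest at ZT16 (1.59, 0.883 and 0.82), and in KO from 1.33 through 2.07 to 2.37. The fitted peak was 1.41 times the trough at ZT5.25 (adjusted p = 0.00815), on the log2(FPKM + 1) scale, which flattens so low a gene. Without WT ZT8 replicate 2, which read 1.32 where its group read 2.33 and 2.37, it was 1.50 times (adjusted p = 0.000924). With the members' median set equal in every library the adjusted p was 0.0855. In KO it was 1.11 times (adjusted p = 0.863) and in Liver-RE 1.08 times (0.801). Cox7a2l peaked in WT at ZT11.67, 1.27 times its trough (adjusted p = 0.0245), with all ZT12 values, 46.4, 43.9 and 42.0 FPKM, near the top. That call went without WT ZT12 replicate 1 or replicate 2, with an adjusted p of up to 0.0768. It was 1.08 times in KO (adjusted p = 0.878) and 1.21 times in Liver-RE (0.171).

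Atp5e (chr2:174461075-174464101), the epsilon subunit of the central stalk, passed in Liver-RE, where it peaked at ZT3.13, 1.67 times its trough (adjusted p = 0.0389). Its Liver-RE values were 272, 275 and 206 FPKM at ZT0 and 203, 149 and 95.6 at ZT16. These triplets did not overlap, but only narrowly, with 206 and 203 as the nearest values. The ZT12 values, 215, 213 and 126, overlapped both. The peak in WT was near it, at ZT2.46 with 1.47 times (adjusted p = 0.0645), and in KO at ZT2.67 with 1.29 times (0.679). The Liver-RE call was lost when any 1 of 7 libraries was left out (ZT0 and ZT4 replicates 1 and 2, ZT12 replicate 3, ZT16 replicates 2 and 3), with an adjusted p of up to 0.162. The fit without a filter on low values, the fits on group means and on Liver-RE alone, and setting the members' median equal in every library also ended it. In WT Atp5e passed in 6 settings: after quantile normalization (adjusted p = 0.0092), with the members' median set equal (0.00942), with the 20 strongest genes left out (0.0122), in a fit of WT alone (0.0247), with the replicate number as a block (0.035) and without KO ZT0 replicates 1 and 2 (0.039). In KO the smallest adjusted p was that of Sdha, 0.534.

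The members' fitted swings were small. From trough to peak the median member rose 1.12-fold in WT, 1.09-fold in KO livers and 1.19-fold in Liver-RE, beside 1.20, 1.12 and 1.16 over all genes. At least 1.25-fold was reached by 4 members in WT against 3 in KO and 20 in Liver-RE, and at least 1.5-fold by 0, 0 and 2 of 78. Of all genes 38.7%, 15.7% and 25.4% reached the lower of these folds and 12.5%, 3.03% and 6.68% the higher. In Liver-RE 59 of 78 fitted peaks fell from ZT0 to ZT6, whereas in WT 20 did, with 33 from ZT6 to ZT12, and in KO 40 fell from ZT12 to ZT18. Members of 1 library share its scaling, so these peaks are not independent of each other. Peak times over all genes were not counted. Among the Liver-RE libraries at ZT16, replicates 2 and 3 had summed FPKM of 303270 and 295876, against 330185 in replicate 1. Their medians over all genes were 2.40 and 2.36 on the log2(FPKM + 1) scale, against 2.55. The part of these libraries in the Liver-RE peaks was not tested. The sum over the members in Liver-RE was 9907 ± 1532 FPKM at ZT0 and 7357 ± 842 at ZT16 (SD, n = 3), while the group means in WT stayed between 8696 and 9858.

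**Figure D4:**
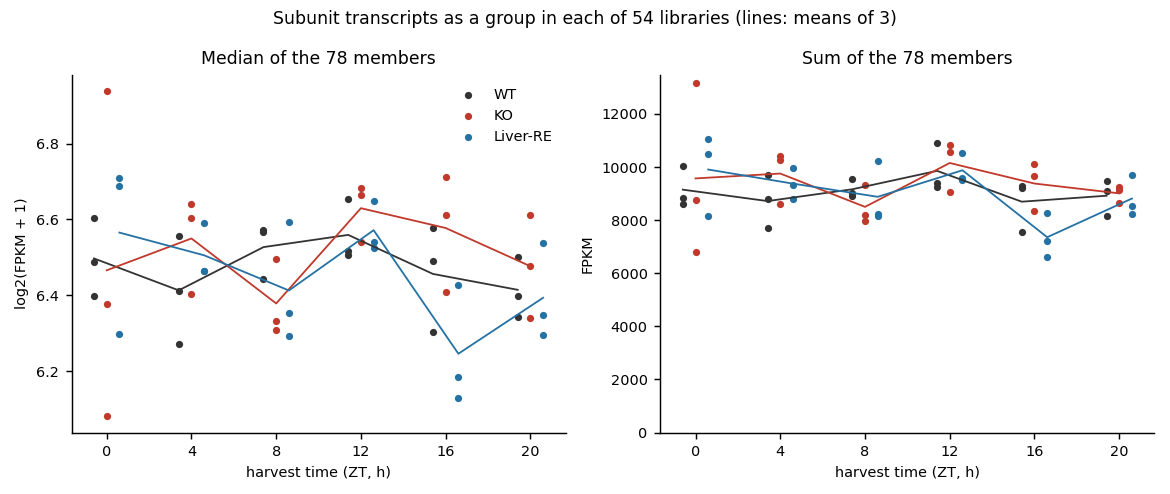
Median of the members on the log2(FPKM + 1) scale (left) and their sum in FPKM (right), 1 point per library and a line through the means of 3, against harvest time in hours by genotype. KO ZT0 holds both the lowest and the highest median, 6.08 and 6.94, and the Liver-RE sum is lowest at ZT16, with a mean of 7357 FPKM.

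**Figure D5:**
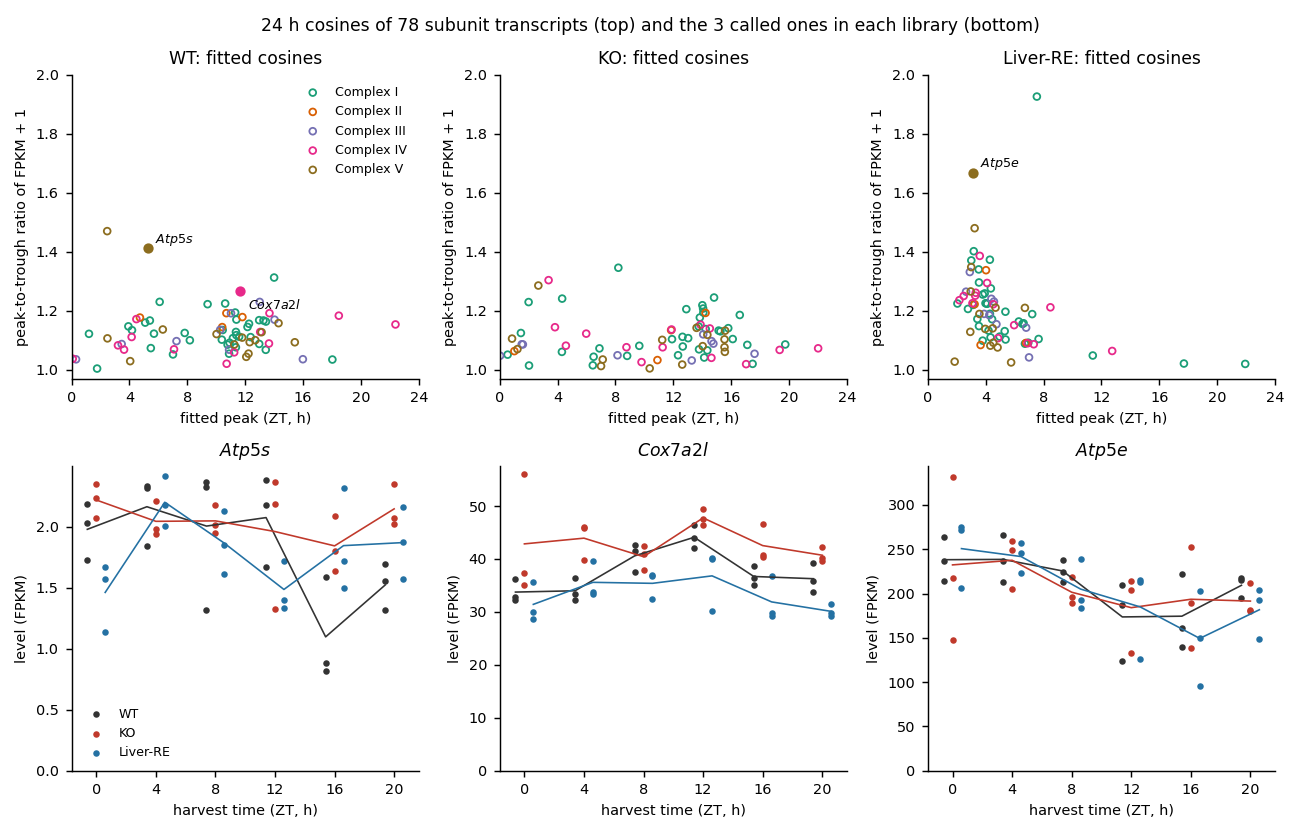
Top, fitted peak time in hours and ratio of peak to trough of FPKM + 1 for each member in each genotype, with filled points for an adjusted p under 0.05; bottom, FPKM of Atp5s, Cox7a2l and Atp5e in each library against harvest time, with lines through the means of 3. In Liver-RE 59 of 78 fitted peaks fall from ZT0 to ZT6, a count not made over all genes. Only Atp5s and Cox7a2l in WT and Atp5e in Liver-RE are filled.

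Of the 6 with an E-box 0 passed any test, of the 14 with an NRF1 motif 1 did, and of the 11 with an ETS motif 3 did, beside 10 of all 65 with a promoter.

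Other genes of the pathway were counted in the same tests. Of 45 tested assembly factors, which build the complexes without staying in them, 17 were higher and 1 lower in KO than in WT, 0 and 0 in Liver-RE against WT, and 0 and 21 in Liver-RE against KO, with medians of 0.10, -0.01 and -0.15. In either direction 40% of them passed between KO and WT, 0% between Liver-RE and WT and 46.7% between Liver-RE and KO, against 30.04%, 7.06% and 34.1% of all genes. Sco2, which brings copper to complex IV, had 33.1 ± 13.8 FPKM in WT against 55.5 ± 9.54 in KO and 32.8 ± 12.0 in Liver-RE (0.83 for KO against WT, adjusted p = 2.81e-08). Cox19, another complex IV factor, had 15.3, 21.6 and 15.9 (0.46, adjusted p = 3.46e-06). The lower one was Ndufaf4 (8.45, 6.76 and 7.22, -0.26, adjusted p = 0.0479). After quantile normalization 17 assembly factors were higher and 2 lower in KO than in WT, and 1 higher and 10 lower in Liver-RE than in KO. Of all 11759 genes 1987 and 1991, and 1457 and 1643, passed on that setting. In Liver-RE against KO the share of assembly factors past the threshold in either direction was then below that of all genes. The share lower was above it. Of the assembly factors 12 were rhythmic in WT (26.7%, against 23.5% of all genes), 0 in KO and 3 in Liver-RE (6.67%, against 3.82%).

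Of 15 genes for mobile carriers and electron entry, 8 were higher and 0 lower in KO than in WT, 1 and 0 in Liver-RE against WT, and 0 and 7 in Liver-RE against KO. In either direction this was 53.3%, 6.67% and 46.7% of them, against 30.04%, 7.06% and 34.1% of all genes. After quantile normalization 8 of the 15 were higher and 1 lower in KO than in WT. In Liver-RE against KO it was then 1 and 3, beside 1457 and 1643 of all 11759 genes. The share in either direction was thus near that of all genes, and the share lower above it. Coq8a, of ubiquinone synthesis, had 82.2 FPKM in WT against 144 in KO and 84.8 in Liver-RE (1.03, adjusted p = 3.2e-06) and in WT a peak 4.79 times its trough at ZT0.55. Etfdh, which feeds electrons of fat oxidation into ubiquinone, had 89.7, 118 and 99.5 (0.39, adjusted p = 0.000286). Of 16 citric acid cycle genes 3 were higher and 4 lower in KO than in WT and 4 and 2 in Liver-RE against KO. Counted in either direction, these were 43.75% and 37.5% of the list, against 30.04% and 34.1% of all genes. Citrate synthase, Cs, was higher in KO (37.8 and 47.9 FPKM in WT and KO, 0.35, adjusted p = 0.0016), while Suclg2, a subunit of succinyl-CoA synthetase, was lower (38.1 and 30.0, -0.33, adjusted p = 1.09e-06). Of 14 regulators of mitochondrial biogenesis 1 was higher in KO than in WT, Tfb1m (0.24, adjusted p = 0.00526), and 1 lower, Gabpa (-0.13, adjusted p = 0.0206). Together they were 14.3% of the list, against 30.04% of all genes. Nrf1 (-0.05, adjusted p = 0.308), the coactivator Ppargc1a (-0.07, adjusted p = 0.67) and Tfam (-0.11, adjusted p = 0.0628) did not pass.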

How the data were processed

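The 54 livers were sequenced as stranded total RNA depleted of ribosomal RNA (Illumina TruSeq). The authors deposited 1 table of values per gene, scaled by length and depth, which was taken as FPKM from the values because no header names the unit: low values times transcript length repeated (5.44% ± 0.857 of low genes at the commonest product, against 1.92% ± 0.145 for the value alone, n = 54). CASAVA 1.8.2 and mm10 appear in the submitters' processing notes. How reads were aligned and counted, and whether by strand, is not given in the sources used here.

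Values were analysed as log2(FPKM + 1), a scale that understates changes of low genes, with limma 3.58.1 in R 4.3.3 on 11759 genes whose mean reached 0.5. A single model gave every genotype its own level and its own 24 h cosine wave; levels are differences of means, rhythms F tests of the cosine terms, with a variance trend. The fit was tested on simulated data. The files give no counts, so no counting interval is given. Members and gene lists were chosen with earlier results of these data known. Named are core and isoform members, the highest and lowest of each complex, members past the threshold with the largest difference or smallest p, and, where none passed, the smallest p; a few genes under this rule are not reported here. Coordinates and promoters are RefSeq's (GRCm38.p6), and all 78 members matched. Short windows shared with other genes were counted at 100 bases. Alternatives were a pseudocount of 0.1, no filter, 2 rescalings, group means, fewer genotypes, a replicate block and leaving out each library.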

Additional observations from a re-analysis of the deposited data

How the results depend on the processing

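Each count of members past the threshold was recomputed under 7 other settings, by leaving out each of the 54 libraries, and under 2 settings chosen after seeing the data (the members' median set equal in every library, and KO ZT0 replicates 1 and 2 left out together). Members lower in KO than in WT numbered 4 with the 20 strongest genes left out and 7 with the median set equal, against 2. Over all genes these counts were 1970 and 1479, against 1592. The member lower in Liver-RE than in WT was 0 with the median set equal, where 111 of all genes were lower, against 691 as deposited. Members higher in Liver-RE than in KO numbered 6 after quantile normalization, 6 with the 20 strongest genes left out and 5 with the median set equal, against 1. Members lower numbered 4 with the 20 strongest left out, against 7. Over all genes the higher ones numbered 1457, 1246 and 946, against 873, and the lower ones 1630, against 3134. Rhythmic members in WT numbered 1 with group means and 4 in a fit of WT alone, against 2; with the median set equal they were 2 others, Atp5e and Ndufa5 in place of Atp5s and Cox7a2l, and after quantile normalization Atp5e stood in place of Cox7a2l. Rhythmic members in Liver-RE numbered 0 without a filter, 0 with group means, 0 with the median set equal, 0 in a fit of Liver-RE alone, 3 after quantile normalization and 2 with the 20 strongest left out, against 1. The cause was not tested.

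Leaving out single libraries gave 5 to 10 members higher and 2 to 3 lower in KO than in WT, 0 to 1 lower in Liver-RE than in WT, 1 to 2 higher and 5 to 9 lower in Liver-RE than in KO, 1 to 3 rhythmic in WT and 0 to 2 in Liver-RE. It was 2 higher in Liver-RE than in KO without KO ZT0 replicate 2 or Liver-RE ZT16 replicate 3. Rhythmic members in Liver-RE were 2 without ZT8 replicate 1, ZT12 replicate 2 or ZT16 replicate 1, and in WT 1 without ZT12 replicate 1 or 2. The 9 calls between KO and WT held in all 7 settings, and 4 of the 7 lower calls of Liver-RE against KO did. In every leave-out of 1 library, 5 of the 7 higher and 2 of the 2 lower calls between KO and WT held.

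The replicate numbers were not taken to pair libraries, since not each same-number correlation was over 0.1, a rule that cannot exclude pairing. Deviations of same-numbered libraries correlated at 0.040 on average (lowest -0.40) and of others at -0.020. Of 54 libraries 29 correlated best with their own number out of 3, a hint from the data only. Whether the numbers mark pairs was not settled. With the replicate number as a block the counts were the same except 3 rhythmic members in WT, with Atp5e added.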

Other observations

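Ribosomal protein genes were counted in the same tests. Of 75 tested cytoplasmic ribosomal protein genes 25 were higher (33.3%, against 16.5% of all genes) and 1 lower in KO than in WT. It was 0 and 2 in Liver-RE against WT, and 0 and 55 in Liver-RE against KO (73.3% lower, against 26.7% of all genes). The medians were 0.15, -0.10 and -0.27 on the log2 scale. After quantile normalization 27 were higher and 1 lower in KO than in WT, and 0 higher and 43 lower in Liver-RE than in KO. Of all 11759 genes it was 1987 and 1991, and 1457 and 1643, on that setting. Of 77 mitochondrial ribosomal protein genes 23 (29.9%) were higher and 0 lower in KO than in WT and 0 higher and 32 (41.6%) lower in Liver-RE than in KO, with 0 and 0 in Liver-RE against WT. After quantile normalization the KO against WT counts were 30 and 1, and those of Liver-RE against KO 0 and 21, beside the same counts of all genes. Of 2020 other genes with transcripts under 1000 bases 394 were higher and 243 lower in KO than in WT, and 126 and 617 in Liver-RE against KO, which is 19.5%, 12.0%, 6.24% and 30.5% beside 16.5%, 13.5%, 7.42% and 26.7% of all genes. The members' transcripts had a median length of 681.5 bases, against 2120 over all tested genes with a length. Among the members, reads of Atp5l are the least certain, since 61.3% of its windows of 100 bases occur in other genes. Its means were 12.2 FPKM in WT against 13.5 in KO and 11.9 in Liver-RE. The share of such windows was 12.7% for Ndufs5 and 34.7% for Atp5g2, a gene under the minimum. The part of shared windows in the low values of these genes was not tested.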
